A study of Mus musculus with 12 samples.

Results

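Interleukins and colony-stimulating factors are secreted proteins by which blood and immune cells instruct one another to divide, mature or mount inflammation. Their transcripts were followed here for 10 mouse genes, namely Il1a, Il1b, Il6, Il10, Il12a, Il12b, Il15, Il18, Csf1 and Csf2. The members were every probe set that the platform annotation gives to exactly 1 of these symbols, which made 14 probe sets of 45101 on the array and 10 genes of 18193. The genes were chosen by name, but with earlier results of these data known.

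The study hybridised RNA of KSL cells, the marrow fraction that carries c-Kit and Sca-1, lacks lineage markers and is enriched for haematopoietic stem and progenitor cells, to 12 Affymetrix mouse arrays, 3 for each of 4 groups. The groups were Fancc-/- cells with TNF, Fancc-/- cells without it, wild-type cells with TNF and wild-type cells without it, all from mice aged 2 to 4 months, and Fancc-/- cells are called mutant below. TNF was given at 10 ng/ml for 24 h, and the other groups were kept for the same time without it. The medium of every culture, untreated ones included, had 10% serum and 4 added factors in ng/ml, which were interleukin-6 at 20, interleukin-11 at 10, Flt3 ligand at 50 and stem cell factor at 10. Fancc encodes a protein of the Fanconi anaemia complex for DNA crosslink repair, and its loss in humans causes marrow failure. IL-6 protein was thus added to all cells, while the array read the cells' own Il6 mRNA. The labels do not say whether replicates came from separate mice, so how much of the variation behind the p-values is technical is not known. The sex-linked transcripts Xist and Eif2s3y, read below, differed widely between replicates of both untreated groups and of wild-type cells with TNF. The replicates of these groups were thus not all repeats of 1 RNA.

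TNF binds receptors that release NF-kB into the nucleus, and the genes of several cytokines, among them Il1b and Il6, are textbook NF-kB targets in macrophages. IL-1 alpha, IL-1 beta and IL-18 form one family, made as precursors, and both IL-1 beta and IL-18 are cut by inflammasome caspases. IL-12 is a pair of chains encoded by Il12a and Il12b, IL-15 sustains natural killer and memory T cells, IL-10 restrains inflammation, and Csf1 and Csf2 encode the growth factors of macrophages and of granulocytes and macrophages.

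Because TNF acts through NF-kB, the sequence upstream of 5 starts is shown for a pair of members that hold an NF-kB motif (Il6 and Csf1) and a pair with a higher level under TNF (Il1b and Il12a, the second with 2 starts). They are the 250 bases before the start in RefSeq (GRCm38.p6), read 5′ to 3′ on the gene's strand, at chr5:30012864-30013113 (Il6, plus strand), chr3:107760470-107760719 (Csf1, minus), chr2:129371140-129371389 (Il1b, minus), chr3:68690394-68690643 and chr3:68691174-68691423 (Il12a, plus). Capitals mark motif matches on either strand.
Il6: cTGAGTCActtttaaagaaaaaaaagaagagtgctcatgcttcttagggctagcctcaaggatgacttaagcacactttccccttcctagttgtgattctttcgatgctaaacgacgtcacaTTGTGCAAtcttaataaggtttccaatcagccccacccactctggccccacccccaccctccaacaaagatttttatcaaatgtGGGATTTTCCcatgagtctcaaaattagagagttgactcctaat
Csf1: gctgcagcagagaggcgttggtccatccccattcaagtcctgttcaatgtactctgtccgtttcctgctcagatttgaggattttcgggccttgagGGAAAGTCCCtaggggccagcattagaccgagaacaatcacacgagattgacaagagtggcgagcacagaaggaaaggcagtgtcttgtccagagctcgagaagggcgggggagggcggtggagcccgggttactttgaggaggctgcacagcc
Il1b: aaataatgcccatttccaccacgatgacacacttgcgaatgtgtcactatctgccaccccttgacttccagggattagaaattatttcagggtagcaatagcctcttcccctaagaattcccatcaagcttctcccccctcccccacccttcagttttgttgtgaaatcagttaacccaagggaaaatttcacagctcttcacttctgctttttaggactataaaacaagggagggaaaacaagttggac
Il12a, upstream start: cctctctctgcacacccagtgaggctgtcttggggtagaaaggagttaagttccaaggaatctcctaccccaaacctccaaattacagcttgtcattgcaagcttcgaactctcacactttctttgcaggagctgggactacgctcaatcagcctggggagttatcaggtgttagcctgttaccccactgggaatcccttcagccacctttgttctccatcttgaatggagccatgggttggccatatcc
Il12a, downstream start: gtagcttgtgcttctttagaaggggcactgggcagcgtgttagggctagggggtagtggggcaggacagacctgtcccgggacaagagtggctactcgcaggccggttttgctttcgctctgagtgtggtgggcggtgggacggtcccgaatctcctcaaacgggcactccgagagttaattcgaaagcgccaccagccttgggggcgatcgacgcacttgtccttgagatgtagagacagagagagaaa
In Il6 the capitals are, in order, an AP-1 motif, a C/EBP motif and an NF-kB motif that overlaps the kappaB consensus, and the last lies 44 to 35 bases before the start. In Csf1 they are an NF-kB motif and the kappaB consensus, overlapping on the opposite strand, 154 to 145 bases before the start. The upstream bases of Il1b and of both Il12a starts held none of the motifs.

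The motifs searched were GGGANNTTC for NF-kB, the broader kappaB consensus by name, TGANTCA for AP-1, GAAANNGAA for interferon response and TTNNGCAA for C/EBP. The promoter table held 9 promoters of 8 members, without Il10 and Il15. The search left out the promoters of 1 chromosome, which held none of these 9. The NF-kB motif stood in 2 of these 9 and in 3.23% of all 32851 promoters searched, and the kappaB consensus in 2 of 9 and in 3.9%. AP-1 stood in 2 of 9 (Il6 and Il1a) and in 6.75% of all, C/EBP in 2 of 9 (Il6 and Csf2) and in 9.56%, and the interferon motif in 1 of 9 (Csf2) and in 7.13%. A match describes letters in this window and is not a site of binding.

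Values are log2 RMA expression, in which 1 unit is a doubling, and a gene with several probe sets is represented by the one with the highest mean over all arrays. Fancc was first checked on every array. It read 8.87, 9.12 and 8.95 in mutant cells with TNF, 9.16, 8.73 and 9.15 in untreated mutant cells, 8.40, 8.65 and 8.22 in wild-type cells with TNF and 8.28, 8.22 and 8.49 in untreated wild-type cells. The transcript was thus higher on every array labelled mutant (8.73 to 9.16) than on any labelled wild type (8.22 to 8.65). Whether its probe set lies within the deleted stretch is not known here, and one outside it would check nothing, so mutant stands throughout for arrays labelled so. Of 12 measured KSL markers, 10 lay above the median of all gene values (7.44) on all 12 arrays, Kit, Flt3 and Cd34 among them, while Slamf1 read 3.33 to 4.51. So did 5 of 13 granulocyte markers, Mpo, Ctsg and S100a8 among them, 6 of 15 monocyte and macrophage markers, Lyz2 and Csf1r among them, and 4 of 11 dendritic cell markers. The same held for 2 of 8 T and NK cell markers (Nkg7 and Il7r) and 1 of 9 B cell and plasma cell markers (Cd79b), while Cd3e read 3.13 to 3.69. The cut was also passed by 3 of 10 erythroid and megakaryocyte markers and 3 of 14 stromal and endothelial markers. Of genes of tissues other than marrow, 2 of 17 passed it (Pcp2 and Mbp). Passing it thus does not by itself mark a cell type, and the share of all genes that passed was not counted. Transcripts of some myeloid markers were read in all groups beside those of progenitors. Other myeloid markers lay under the median of 7.44 on every array, such as Cxcr2 (3.93 to 7.24) and Itgam (4.75 to 6.08). Xist, the X-inactivation RNA of females, read 12.20 to 13.08 on the TNF arrays of both genotypes. It was 5.12, 12.73 and 12.04 in untreated mutant cells and 5.47, 5.06 and 12.53 in untreated wild-type cells, so untreated and TNF groups differed in it. The Y-linked gene Eif2s3y read 10.46 to 11.88 on all arrays but untreated mutant replicate 2 (4.16) and wild-type TNF replicate 3 (3.79). Both transcripts were thus high together on untreated replicate 3 of each genotype, wild-type TNF replicates 1 and 2 and all mutant TNF arrays. The RNA of those arrays held transcripts of both sexes. The 25th percentile of all gene values was 4.54, and RMA compresses fold changes near the floor.

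Under TNF, 4 of the 10 genes changed when both genotypes were averaged. Il15 and Il10 fell, and Il1b and Il12a rose. Of all genes, 5.81% were called higher and 6.32% lower in the same comparison, by limma with an adjusted p under 0.05. The median change over the members was -0.05, beside -0.03 over all genes. Over probe sets, where 7.41% of all were called in either direction, Il15, Il10 and Il1b were called and the adjusted p of Il12a was 0.0564. As the arrays read bulk RNA, fewer cells that make a transcript and less of it per cell cannot be told apart.

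**Figure D1:**
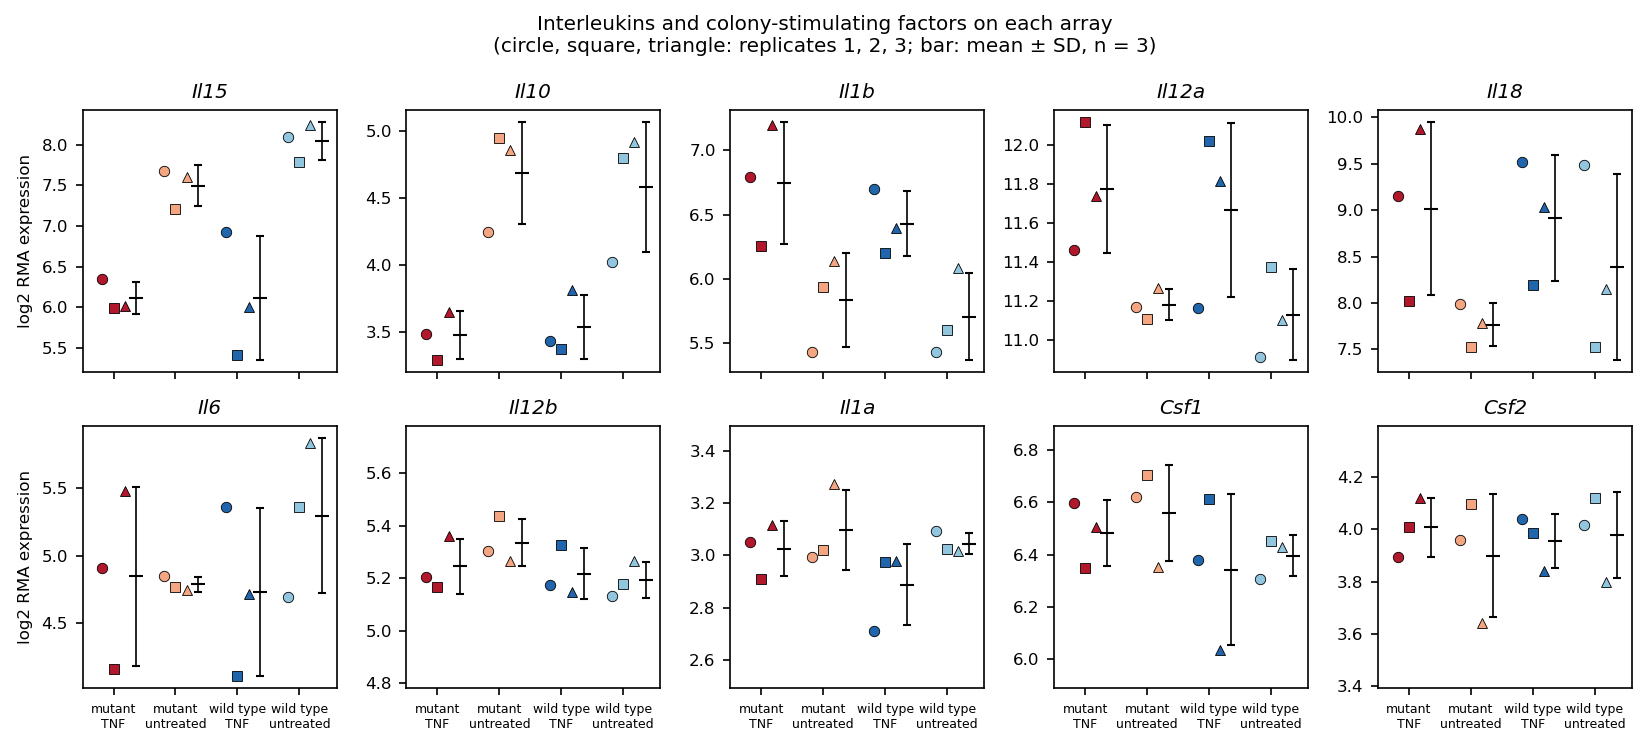
Expression of each of the 10 genes (log2 RMA, vertical axis, own scale per gene) on the 3 arrays of each of the 4 groups, with mean ± SD. The TNF arrays of Il15 and Il10 sit below, and those of Il1b above, every untreated array of the same genotype.

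Il15, the growth factor of natural killer cells, had the largest change of the members. It read 6.35, 5.99 and 6.02 in mutant cells with TNF, against 7.68, 7.21 and 7.60 in untreated mutant cells. In wild-type cells it read 6.93, 5.41 and 6.01 with TNF, against 8.09, 7.79 and 8.25 without. All 6 TNF arrays lay below all 6 untreated arrays, and wild-type replicate 1 with TNF was the highest of the treated arrays. The log2 change was -1.38 in mutant cells (SE 0.31, n = 3 each, limma adjusted p 0.0305), a level 2.60-fold lower. In wild-type cells it was -1.93 (SE 0.31, n = 3 each, limma adjusted p 0.00484), or 3.81-fold lower. The averaged change was -1.65 (SE 0.22, limma adjusted p 0.000652). In mutant cells the call was lost without any single one of the 6 mutant arrays (limma adjusted p 0.0524 to 0.104). With Xist and Eif2s3y (a Y-linked gene) as covariates, it was lost in mutant cells (limma adjusted p 0.0883) and in wild-type cells (0.0531), while the changes, -1.52 and -1.92, were as large as without them.

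Il10, the inflammation-restraining cytokine, also fell in both genotypes. It read 3.49, 3.29 and 3.65 in mutant cells with TNF, against 4.25, 4.95 and 4.86 without. Wild-type cells with TNF read 3.43, 3.37 and 3.81, against 4.02, 4.80 and 4.92 without. The treated arrays lay below every untreated array, and replicate 1 was the lowest untreated array in both genotypes. The log2 change was -1.21 in mutant cells (SE 0.25, limma adjusted p 0.0199) and -1.05 in wild-type cells (SE 0.25, limma adjusted p 0.0363). All treated values were under the 25th percentile of the array, where RMA compresses differences. The averaged fall was -1.13 (SE 0.18, limma adjusted p 0.00185). The call in wild-type cells was lost without replicates 1, 2 or 3 with TNF or replicates 2 or 3 untreated (limma adjusted p 0.0568 to 0.129), and without mutant TNF replicate 1 (0.0552) or untreated mutant replicate 3 (0.0510). In mutant cells it was lost without TNF replicate 1 (0.0563) or 2 (0.0763) or untreated replicate 2 (0.0859) or 3 (0.0831).

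Il1b, the secreted pyrogen of the IL-1 family, rose in the average of both genotypes. It read 6.79, 6.25 and 7.20 in mutant cells with TNF, against 5.43, 5.93 and 6.14 without. It read 6.70, 6.20 and 6.39 in wild-type cells with TNF, against 5.43, 5.60 and 6.08 without. Within each genotype the treated arrays lay above the untreated ones, and mutant replicate 3 with TNF was the highest of all. The averaged log2 change was 0.82 (SE 0.19, limma adjusted p 0.0162). Neither genotype passed alone, with 0.91 in mutant cells (limma adjusted p 0.0896) and 0.73 in wild-type cells (limma adjusted p 0.167). With Xist and Eif2s3y as covariates the averaged change was 0.50 and not called (limma adjusted p 0.209).

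Il12a, the smaller chain of IL-12, which also pairs with Ebi3 to form IL-35, rose slightly in the average. It read 11.46, 12.12 and 11.74 in mutant cells with TNF, against 11.17, 11.11 and 11.27 without. Wild-type cells with TNF read 11.16, 12.02 and 11.81, against 10.91, 11.38 and 11.10 without. The mutant groups did not overlap, but in wild-type cells the lowest treated array lay under the highest untreated one. The averaged log2 change was 0.57 (SE 0.16, limma adjusted p 0.0393), with 0.59 in mutant cells (limma adjusted p 0.193) and 0.54 in wild-type cells (limma adjusted p 0.230). The averaged call was lost in 12 of 21 alternative settings, among them leaving out mutant TNF replicate 2 or 3, any untreated mutant array, wild-type TNF replicate 2 or 3, or untreated wild-type replicate 1 or 3 (limma adjusted p 0.0668 to 0.0900), and the 2 sex-linked covariates (0.172, with a change of 0.59).

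Within single genotypes the calls were 0 higher and 2 lower in mutant cells and 0 higher and 2 lower in wild-type cells, and the lower ones were Il15 and Il10 in each genotype. Among all genes, TNF in mutant cells gave 2.45% higher and 1.86% lower, and TNF in wild-type cells 2.69% higher and 2.33% lower. The treated and untreated arrays did not overlap for 5 of the 10 members in mutant cells, where 26.2% of all genes did not. In wild-type cells this held for 4 members, where 20.6% of all genes did not overlap. These 4 included Il1a, which lies near the floor and changed by only -0.16 (limma adjusted p 0.492). At an unadjusted p under 0.05 the counts were 5 members in mutant cells, where 17.1% of all genes passed, and 4 in wild-type cells, where 17.8% did.

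**Figure D2:**
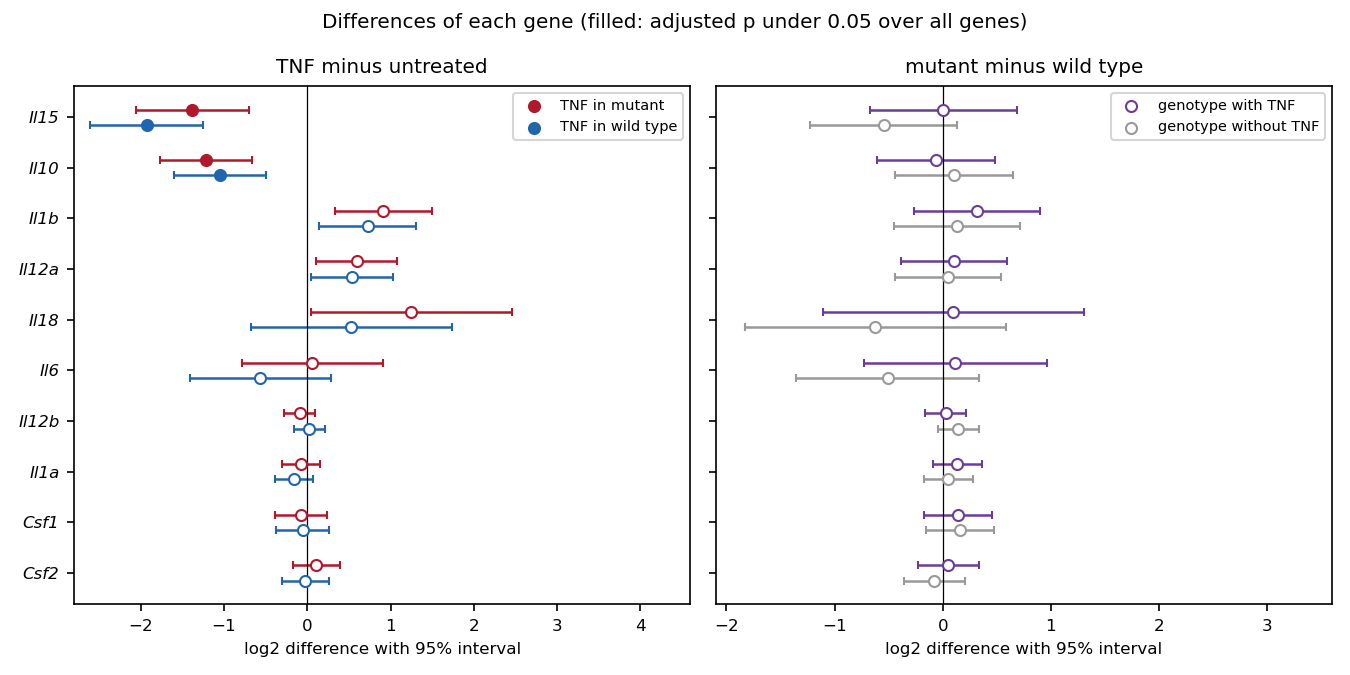
Log2 differences with 95% intervals from the limma fit for each gene, as TNF minus untreated (left, in mutant and wild-type cells) and as mutant minus wild type (right, with and without TNF). Filled points passed an adjusted p of 0.05 over all genes, which held for Il15 and Il10 under TNF and for no gene between genotypes.

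Il18, an IL-1 family cytokine that drives interferon-gamma release, had the widest spread within groups of the members. It read 9.15, 8.02 and 9.87 in mutant cells with TNF, against 7.99, 7.52 and 7.78 without. In wild-type cells it read 9.52, 8.19 and 9.03 with TNF, against 9.49, 7.53 and 8.15 without. The mutant groups did not overlap, whereas untreated wild-type replicate 1 reached the treated range. The log2 change was 1.25 in mutant cells (95% interval 0.04 to 2.45, limma adjusted p 0.275) and 0.53 in wild-type cells (95% interval -0.68 to 1.73, limma adjusted p 0.684), so neither passed. The averaged 0.89 (SE 0.39) did not pass either (limma adjusted p 0.176), but did with array weights (1.12, limma adjusted p 0.0417) and with the replicate number as a block (0.89, limma adjusted p 0.0499). The wild-type change ranged from 0.10 without untreated replicate 2 to 1.08 without untreated replicate 1, and was 0.22 without TNF replicate 1 and 0.89 without TNF replicate 2.

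Il6, the inflammatory and haematopoietic cytokine that was also in the medium, showed no call. It read 4.91, 4.16 and 5.47 in mutant cells with TNF, against 4.85, 4.77 and 4.74 without. It read 5.36, 4.11 and 4.72 in wild-type cells with TNF, against 4.69, 5.36 and 5.83 without. Treated and untreated arrays overlapped in both genotypes, and the untreated mutant arrays were close together while the other groups spread over more than 1 unit. The log2 change was 0.06 in mutant cells (95% interval -0.79 to 0.90) and -0.56 in wild-type cells (95% interval -1.41 to 0.28), and the limma adjusted p of the average was 0.613. The NF-kB motif of its promoter is in the sequence printed above.

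The other 4 members had no call in any comparison. Il1a, the membrane-bound and alarm-type IL-1, read 2.71 to 3.27 over all 12 arrays, under the 25th percentile. Its log2 change was -0.07 in mutant cells (95% interval -0.30 to 0.16) and -0.16 in wild-type cells (95% interval -0.38 to 0.07). Csf2, the granulocyte and macrophage factor, read 3.64 to 4.12, also under that percentile. Its changes were 0.11 in mutant cells (95% interval -0.17 to 0.39) and -0.02 in wild-type cells (95% interval -0.30 to 0.26). At these levels an array probe set gives little room for a fall to be seen.

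Il12b, the larger chain of IL-12, which it shares with IL-23, read 5.13 to 5.44 on its brighter probe set and 2.94 to 3.35 on its other one. The brighter set changed by -0.09 in mutant cells (95% interval -0.28 to 0.10) and 0.03 in wild-type cells (95% interval -0.16 to 0.21). Both intervals lay close to 0, on a scale that compresses changes at such levels. Csf1, the macrophage growth factor, had 4 probe sets, which read 6.04 to 6.70, 5.54 to 6.67, 5.19 to 5.97 and 4.81 to 5.68. Their averaged TNF changes were -0.06, -0.27, -0.18 and -0.05, all with the same sign and none called. In mutant cells the 4 changes were -0.08, -0.22, 0.02 and 0.06, so the sign was not shared there. On the brightest set the change was -0.08 in mutant cells (95% interval -0.39 to 0.24) and -0.05 in wild-type cells (95% interval -0.37 to 0.26).

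Between genotypes, 0 of 10 members were called, with or without TNF, by limma. At an unadjusted p under 0.05 the count was also 0 in both comparisons, where 5.6% of all genes passed with TNF and 4.12% without, so 0 of 10 is near the background. Among all genes 0.0055% were called between genotypes with TNF, the same share without TNF, and 0.022% in the average of both. Without TNF the genotype arrays did not overlap for 1 member, Il15, where 8.1% of all genes did not, and with TNF for 0 members, where 11% of all genes did not. Il15 in untreated cells was 0.55 log2 units lower in mutant than in wild-type cells (95% interval of the difference -1.22 to 0.13, limma adjusted p 0.992). With TNF the difference was 0.00 (95% interval -0.68 to 0.69).

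The interaction, meaning the TNF change in mutant minus that in wild-type cells, was also called for 0 members, for 0% of all genes, and for 0 members at an unadjusted p under 0.05, which 2.9% of all genes passed. It was 0.55 for Il15 (95% interval -0.41 to 1.51), 0.72 for Il18 (-0.98 to 2.43) and 0.62 for Il6 (-0.57 to 1.82). The intervals were wide with 3 arrays a group, so the missing calls do not show that both genotypes responded alike.

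The genes that carry these signals were read next. Of 17 measured receptor genes of the 18 listed, 2 were higher and 3 lower in mutant cells with TNF, and 2 higher and 4 lower in wild-type cells. In the average 4 were higher and 7 lower, and the list median was -0.10, beside -0.03 over all genes.

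Il18r1, the ligand-binding chain of the IL-18 receptor, had the largest rise of the list. It read 8.60, 9.92 and 9.01 in mutant cells with TNF, against 6.48, 7.52 and 6.87 without, and 8.23, 9.35 and 8.84 in wild-type cells with TNF, against 6.48, 6.80 and 6.68 without. Every treated array lay above every untreated one, and the log2 change was 2.22 in mutant cells (SE 0.37, limma adjusted p 0.00653) and 2.15 in wild-type cells (SE 0.37, limma adjusted p 0.00741). Il1r1, the signalling receptor of IL-1, was higher by 0.51 in mutant cells (limma adjusted p 0.0393) and 0.50 in wild-type cells (limma adjusted p 0.0387). Its co-receptor Il1rap was lower, by -0.46 in mutant cells (limma adjusted p 0.00906) and -0.39 in wild-type cells (limma adjusted p 0.0190). The 2 chains through which IL-1 signals thus differed in direction.

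Il12rb1, a receptor chain for IL-12 and IL-23, fell. It read 5.95, 6.02 and 6.10 in mutant cells with TNF, against 7.42, 7.15 and 7.24 without, and 5.63, 5.98 and 6.09 in wild-type cells with TNF, against 7.37, 6.83 and 7.25 without. The groups were well apart, with a change of -1.25 (SE 0.15) in each genotype (limma adjusted p 0.00105 in mutant cells and 0.000943 in wild-type cells). Il6st, the gp130 chain through which IL-6 and IL-11 of the medium signal, was lower by -0.53 in mutant cells (limma adjusted p 0.0220) and -0.64 in wild-type cells (limma adjusted p 0.00734). Il2rb, a chain shared by the IL-15 and IL-2 receptors, changed by -0.48 in mutant cells (limma adjusted p 0.236, not called) and -0.87 in wild-type cells (limma adjusted p 0.0276), and the interaction was 0.39 (limma adjusted p 1).

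**Figure D3:**
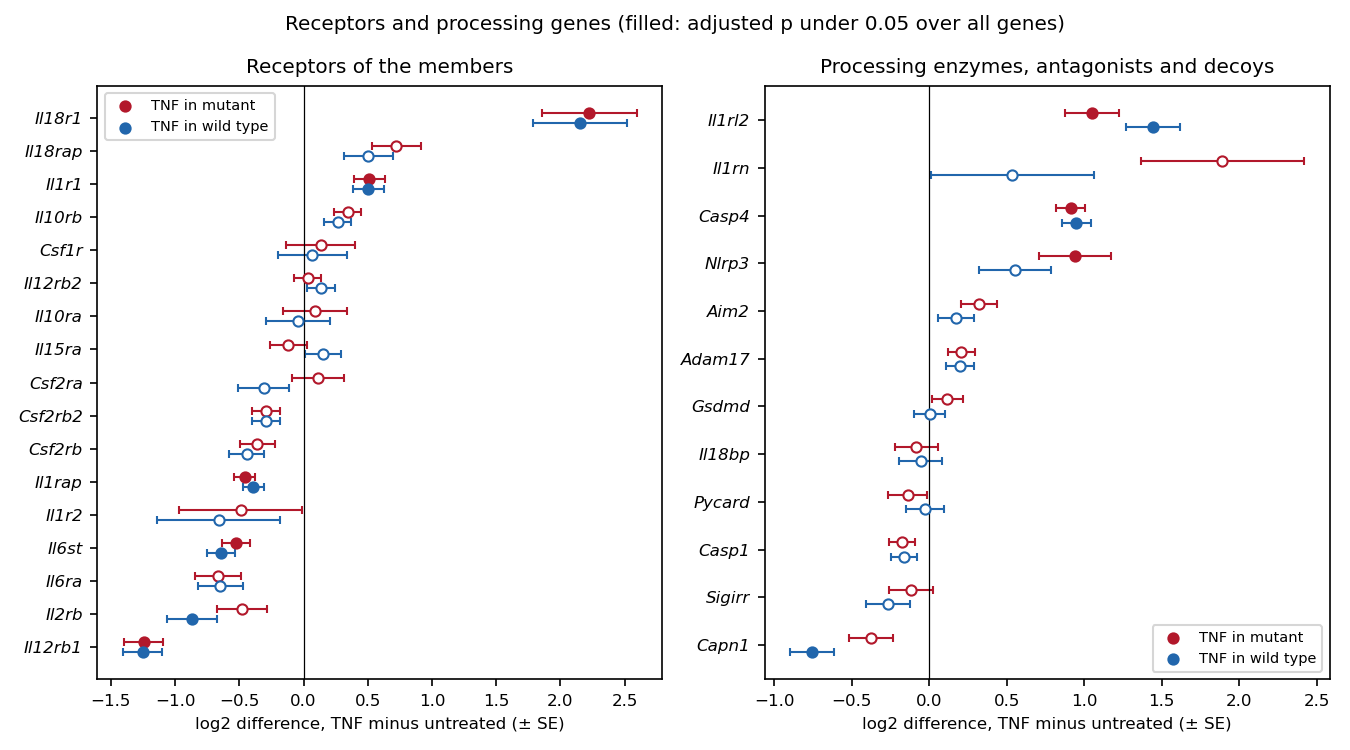
Log2 difference, TNF minus untreated, with SE, for measured receptor genes of the 10 cytokines (left) and for genes listed for their processing or antagonism (right), in mutant and wild-type cells. The right list also holds Il1rl2, the IL-36 receptor. Filled points passed an adjusted p of 0.05 over all genes. Il18r1 lies at the upper end and Il12rb1 at the lower end of the receptors.

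Of 12 measured genes of 15 listed for processing, antagonists and decoys, 3 were higher and 0 lower in mutant cells with TNF, and 2 higher and 1 lower in wild-type cells. Casp4, the caspase that senses cytosolic lipopolysaccharide, read 11.15, 11.17 and 11.24 in mutant cells with TNF, against 10.18, 10.21 and 10.43 without. It read 11.25, 11.04 and 11.22 in wild-type cells with TNF, against 10.12, 10.23 and 10.31 without. The groups did not overlap, and the change was 0.91 in mutant cells (limma adjusted p 0.000303) and 0.95 in wild-type cells (limma adjusted p 0.000232). Il1rl2, the IL-36 receptor, was higher by 1.05 in mutant cells (limma adjusted p 0.00667) and 1.44 in wild-type cells (limma adjusted p 0.000937). It is counted above in both genotypes, although it is a receptor and not a processing enzyme or antagonist of the members.

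Nlrp3, the inflammasome sensor that leads to cutting of IL-1 beta and IL-18, changed by 0.94 in mutant cells (limma adjusted p 0.0474) and 0.55 in wild-type cells (limma adjusted p 0.239, not called). Capn1, a calpain gene, changed by -0.37 in mutant cells (limma adjusted p 0.203, not called) and -0.75 in wild-type cells (limma adjusted p 0.0125). The interaction was called for neither (limma adjusted p 1 for both). Il1rn, the secreted antagonist of IL-1, did not pass, and 2 mutant arrays with TNF stood above the rest. It read 7.57, 5.46 and 8.04 in mutant cells with TNF, against 4.78, 5.07 and 5.54 without, and 6.22, 5.61 and 5.44 in wild-type cells with TNF, against 5.08, 5.30 and 5.30 without. Its averaged change was 1.21 (limma adjusted p 0.0598), and it was named after its values were seen.

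Of 29 other interleukins and haematopoietic cytokines measured of 41 listed, 1 was higher and 0 lower in mutant cells with TNF, and 1 higher and 1 lower in wild-type cells. The higher one was Ebi3, a partner chain of Il12a in IL-35. It read 11.04, 11.41 and 11.47 in mutant cells with TNF, against 9.27, 9.36 and 9.38 without, and 11.09, 11.48 and 11.19 in wild-type cells with TNF, against 9.71, 9.01 and 9.12 without. No treated array overlapped an untreated one, and the change was 1.97 in each genotype (SE 0.18, limma adjusted p 0.00018 in mutant cells and 0.000158 in wild-type cells). The lower one was Il4, the T helper cytokine, at -0.62 in wild-type cells (limma adjusted p 0.0035) and -0.11 in mutant cells (limma adjusted p 0.629, not called), with values of 4.36 to 5.19, near the floor. Its interaction was 0.51 and not called. Untreated cells averaged 5.05 in wild type and 4.58 in mutant, a difference of -0.48 that was not called (limma adjusted p 0.808).

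**Figure D4:**
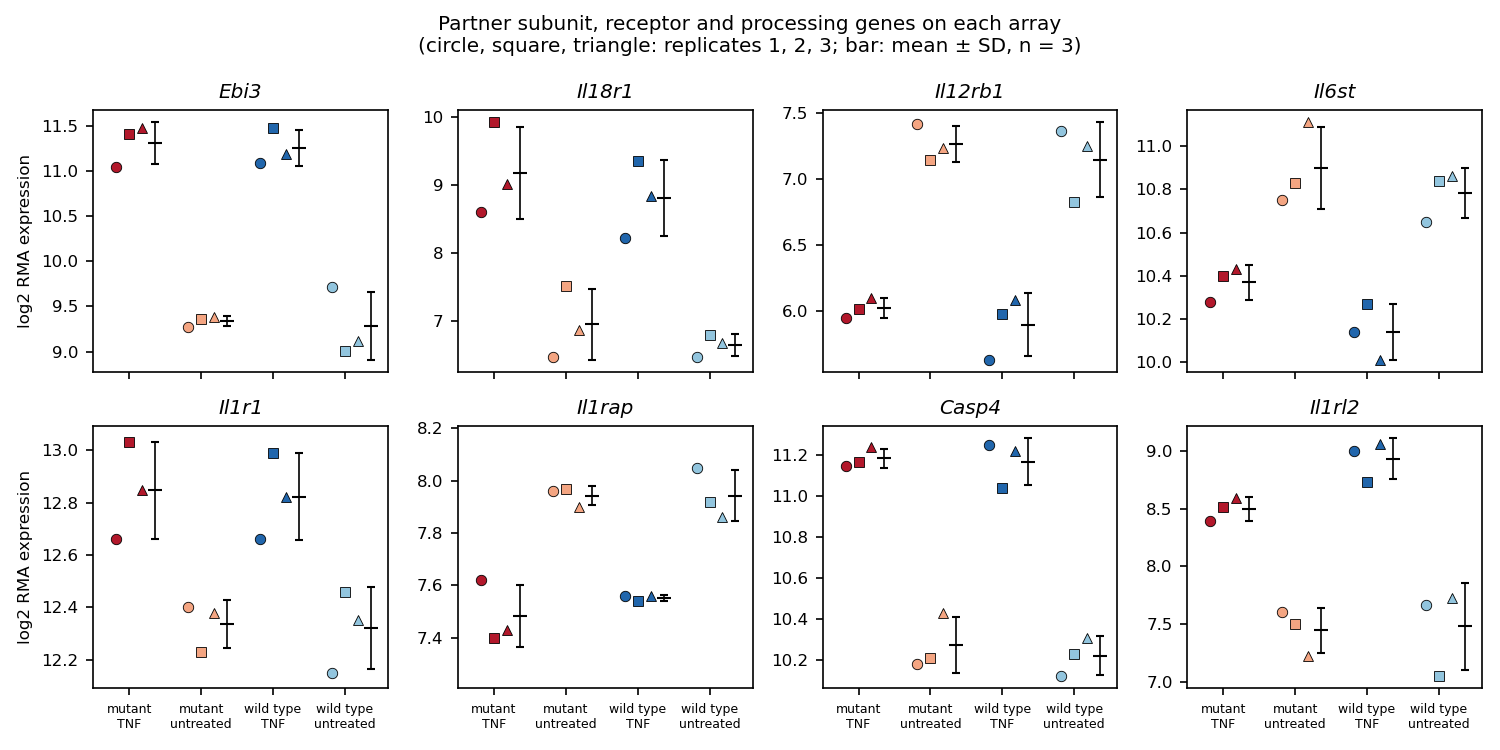
Expression (log2 RMA, own scale per gene) of 8 partner, receptor and processing genes on the 3 arrays of each group, with mean ± SD. For Ebi3, Il18r1, Casp4 and Il1rl2 all TNF arrays sit above, and for Il12rb1, Il6st and Il1rap below, all untreated arrays.

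Genes of the NF-kB system were higher with TNF in both genotypes. Of 17 measured genes of 19 listed, which were chosen with results of these data known, 11 were higher and 0 lower in mutant cells with TNF, and 10 higher and 0 lower in wild-type cells. The feedback inhibitor Tnfaip3 was higher by 3.77 in mutant cells (limma adjusted p 8.31e-07) and 3.51 in wild-type cells (limma adjusted p 2.37e-06). Relb, an NF-kB subunit, was higher by 3.49 in mutant cells (limma adjusted p 3.05e-07) and 3.20 in wild-type cells (limma adjusted p 3.8e-07). Traf1, Nfkbie, Nfkb2 and Birc3 were higher by 2.70, 2.61, 2.04 and 1.55 in the average. Beside these, the members called higher changed by 0.82 (Il1b) and 0.57 (Il12a), and Il6 and Csf1, whose promoters hold the NF-kB motif, were not called.

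Markers of other cells moved with TNF as well. Of 13 measured granulocyte markers of 15 listed, 0 were higher and 6 lower in mutant cells, and 0 higher and 9 lower in wild-type cells. The log2 of their summed level ranged from 14.02 to 15.25 in mutant cells with TNF and 15.95 to 16.20 without, and from 14.17 to 14.81 in wild-type cells with TNF and 15.68 to 16.00 without. The granule genes Mmp8 and Elane changed by -4.92 and -3.54 in the average.

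Of 15 measured monocyte and macrophage markers of 16 listed, 1 was higher and 5 lower in mutant cells, and 1 higher and 6 lower in wild-type cells. The log2 of their sum was 14.30 to 15.25 in mutant cells with TNF and 14.91 to 15.41 without, and 14.35 to 14.61 in wild-type cells with TNF and 14.69 to 15.12 without. F13a1 and Vcan changed by -4.46 and -3.49 in the average, and Cx3cr1 by 2.02. Of 11 measured dendritic cell markers of 12 listed, 5 were higher and 0 lower in mutant cells, and 3 higher and 0 lower in wild-type cells, with Zbtb46 at 3.90 and Cd83 at 2.23 in the average. The log2 of their sum was 13.22 to 13.40 in mutant cells with TNF and 12.53 to 12.68 without, and 12.84 to 13.36 in wild-type cells with TNF and 12.50 to 12.73 without. The part that these cells had in the changes of Il15, Il10, Il1b and Il12a was not tested.

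Among replicates of a group, a few members varied together. Of the 45 pairs of members, 36 had a Pearson r under 0.5 in size over the 12 arrays after removing group means, and 3 reached 0.7. In these 3, Il1b and Il6 had an r of 0.80, Il12a and Il15 of -0.80, and Il12a and Il18 of -0.74, as a description over arrays that share groups. Il1b had an r of 0.92 with the mean of the monocyte and macrophage markers of the same array, and Il6 of 0.79. These were among 8 values of at least 0.7 in size of the 150 between a list and a member. The 8 also hold 0.85 for Csf1 with stromal and endothelial markers and 0.77 for Il1b with the processing list. Csf2, which lies near the floor, had 0.78 with genes of tissues other than marrow. The rest were -0.78 for Il10 with KSL markers, 0.73 for Il12a with B cell and plasma cell markers and 0.75 for Il1a with dendritic cell markers. What these values reflect was not tested.

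The genes most like each called member were sought over the 12 arrays among 2206 genes called in the TNF average, as a description. Nearest to Il1b were Treml4 (r = 0.97), Cd302 (0.96) and Car13 (0.95), and nearest to Il10 were Chst13 (0.98), Timp1 (0.96) and Gpr160 (0.96). Nearest to Il12a were Mef2c (0.96), Camk1d (0.96) and Mn1 (0.95), and nearest to Il15 were Zfp568 (0.97), Xbp1 (0.96) and Hk3 (0.96). Part of each r comes from the shared TNF difference. Each gene was also picked for its high r on these same arrays, which raises the values below as well. With group means removed it was 0.91 to 0.95 for the 3 genes near Il1b, 0.82 to 0.96 near Il10, 0.89 to 0.92 near Il12a and 0.74 to 0.90 near Il15.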

How the data were processed

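The authors deposited log2 values for each probe set of 12 Affymetrix MOE430 2.0 arrays (1 colour), made with RMA, per the submitters' processing notes (version not stated there). The values, 2.14 to 14.94, gave the log base. Per the labels' protocols, small amounts of total RNA were amplified before labelling. RMA equalises array distributions, so a shift of all genes cannot be seen. Precision is limited by the number of arrays.

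The platform annotation gave 1 symbol to 34945 probe sets that are not controls, several to 932, and did not list 9160, and 64 controls were dropped. Each gene was represented by its brightest probe set with 1 symbol, and all 18193 genes were fitted without a filter on low values, so all 10 members were tested. limma 3.58.1 in R 4.3.3 fitted 1 mean per group over 12 arrays, 2-sided, with Benjamini-Hochberg adjustment over all genes. It tested TNF within mutant and within wild-type cells, genotype with and without TNF, their interaction and the average of both effects. The scripts were tested on simulated data. All members were named, and from other lists up to 6 genes called in either genotype with the largest averaged change. Il1rn, Epx, Prg2 and the members of marker lists cited as a check of cell type were named after their values were seen. Of 232 list entries, 198 were measured, and the others were not analysed here. Members and lists were chosen with earlier results of these data known. Promoters came from the RefSeq table (GRCm38.p6). Alternatives were a low-value filter, cyclic loess, median centring, all probe sets, averaged probe sets, trended and robust moderation, array weights, sex-linked covariates, only the groups compared, a replicate block and each array left out. A member not called in either setting was treated as having no direction to lose.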

Additional observations from a re-analysis of the deposited data

How the results depend on the processing

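Of the 10 members, 4 were called in the TNF average. This count was 2 with the filter on low values, which kept 9444 genes and 3 members (Il12a, Il15 and Il18), and 2 with Xist and Eif2s3y as covariates. It was 5 with array weights or the replicate block, 3 with median centring or all probe sets, and 3 to 4 when single arrays were left out. The count for TNF in mutant cells, 2, was 1 with the filter and 1 with these covariates, and 0 to 2 when single arrays were left out. The count for TNF in wild-type cells, 2, was 1 with the filter, cyclic loess, all probe sets, the covariates or only the groups compared, and 1 to 2 when single arrays were left out. Counts for genotype and interaction were 0 under every alternative run. For all genes the covariates left 1270 calls in the TNF average, against 2207. Il15 was called in the TNF average under 21 of 21 alternatives (change -1.86 to -1.48, limma adjusted p 4.15e-05 to 0.0129), and Il10 under 20 of 20 that gave a value (-1.38 to -1.04, limma adjusted p 0.000405 to 0.00688). Il10 in wild-type cells lost its call with cyclic loess (limma adjusted p 0.0523), all probe sets (0.0572) and only the groups compared (0.101). The averaged call of Il12a was also lost with median centring (0.0742) and all probe sets (0.0564). Il12a in wild-type cells was called without wild-type TNF replicate 1 (change 0.79, limma adjusted p 0.0446), and Il1b in mutant cells without mutant TNF replicate 2 (1.16, limma adjusted p 0.0425) and with array weights (0.0340). Same-numbered arrays had deviations correlated at -0.16 to 0.28 over all genes, so the numbers were not taken to pair samples. Between genotypes with TNF, however, these values were all positive (0.22, 0.23 and 0.05). In both TNF groups, replicate 2 was the lowest array for Il1b, Il6, Il10, Il15 and Il18 and the highest for Il12a. What same-numbered arrays share is not known. With the replicate number as a block, the count was 5 in the TNF average, where Il18 was added (0.89, limma adjusted p 0.0499), and 2 in mutant and 2 in wild-type cells. No member reversed. Causes of these differences were not tested. Il1a, Il10 and Csf2 lie near the floor, where the array limits what can be seen.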

Other observations

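Other cell type lists were read in the same limma fit. Of 12 measured KSL markers, Procr was called in mutant cells with TNF, where it was higher by 1.67. In wild-type cells it changed by 1.30 and was not called (limma adjusted p 0.0978). Of 10 mast cell, basophil and eosinophil markers, Mcpt8 and Hdc were called in wild-type cells, where they were lower. In mutant cells they changed by -1.48 and -1.50 without a call, and the interaction was called for neither. The median change of this list was -0.08 in mutant and -1.21 in wild-type cells. Epx and Prg2 changed by 0.57 and 0.76 in mutant cells and by -1.57 and -1.42 in wild-type cells, none called. Their interactions, 2.13 and 2.18, were not called either. Of 8 T and NK cell markers Nkg7 was lower in both genotypes. Of 10 erythroid and megakaryocyte markers, 1 was lower in mutant cells and 2 in wild-type cells, with Klf1 at -0.65 and Gp1bb at -0.46 in the average. Of 14 stromal and endothelial markers, Fap was higher (1.30 in the average) and Pecam1 lower (-1.18) in both genotypes. Of 9 B cell and plasma cell markers 0 were called in a single genotype (at an unadjusted p under 0.05, 1 in mutant and 3 in wild-type cells), though Ebf1 (1.17) and Cd79a (-0.40) passed in the average. Of 17 genes of tissues other than marrow 0 were called (at an unadjusted p under 0.05, 2 in mutant and 2 in wild-type cells).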
